A study of Rattus norvegicus with 18 samples.

Results

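Globins are small heme proteins that bind oxygen, carbon monoxide (CO) and nitric oxide at the iron of their heme. The genes described here are Hbb, a beta chain of adult hemoglobin, Ngb, the nerve cell globin neuroglobin, and Cygb, the tissue globin cytoglobin. They were taken by symbol from a table of counts per gene in rat brain, and the 3 other rows whose symbol starts with Hba or Hbb (Hba1, Hba2 and Hbb-b1) are shown beside them. These are 6 rows of 34873 listed, and all 6 were among the 16581 genes with enough counts to be tested.

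The study compared 3 groups of 6 brain libraries, named NC, CO and CLCF1. NC was wild type with no treatment named, CO was wild type and had inhaled CO, and CLCF1 had inhaled CO and carried the label of a Clcf1 knock-down. The exposure was 1000 ppm CO for 40 min followed by 3000 ppm for 20 min, and it was taken as reached when carboxyhemoglobin, the complex of CO with hemoglobin, was above 60%. The title asks how CLCF1 and NF-κB act on the uptake of dying cells by macrophages, and on brain damage and cognition, after CO poisoning. The knock-down is described as a lentiviral short hairpin RNA in macrophages grown from bone marrow, which were given to rats treated with chloroquine phosphate liposomes to deplete their own. The text does not say whether NC and CO rats received liposomes or cells, nor the brain region, the age or the time after exposure.

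An adult hemoglobin molecule pairs alpha chains with beta chains, and red cells carry nearly all of it. CO binds its heme more tightly than oxygen does, which is why blood hemoglobin is the main target of CO poisoning. Reticulocytes, the youngest red cells, still hold globin RNA, whereas neuroglobin is known from nerve cells and cytoglobin from fibroblast-like cells, pericytes and some neurons.

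Depth was 15.1 to 20.3 M counts per library. Below, CPM (counts per M) is the count divided by the scaled library size, ± is the SD over 6 libraries for CPM and the standard error for a log2 fold change. Adjusted p-values (edgeR, quasi-likelihood, Benjamini-Hochberg over all genes tested) under 0.05 were called. Nothing in the labels ties the 6 libraries of a group to separate animals, and the p-values therefore cover only the spread among libraries, which may be technical. Clcf1 itself had 1 to 7 counts per library in NC, 80 to 118 in CO and 0 to 3 in CLCF1. The marker lists of neurons (6 genes), astrocytes (4), oligodendrocytes (4) and microglia (5) were tested in full, while the endothelial gene Cldn5 was listed at 0 in every library.

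Libraries 3 to 6 of each group stood apart from libraries 1 and 2. In 42660 cases neither library 1 nor library 2 of a group held a count of a gene, and libraries 3 to 6 of the group held a count in 0 of these cases. In libraries 1 and 2 of another group, 6.17% to 11.9% of such genes had counts. Libraries 3 to 6 may thus not be independent of libraries 1 and 2, which was not tested. The globin rows showed a difference too: the count of Hba1 divided by that of Hba2 lay between 2.02 and 2.51 in the 6 libraries numbered 1 or 2, and between 0.192 and 13.0 in the other 12. Results below are therefore also given for libraries 1 and 2 alone, where the same fit called 4 genes in CO against NC, 8 in CLCF1 against CO and 2 in the remaining comparison.

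**Figure D1:**
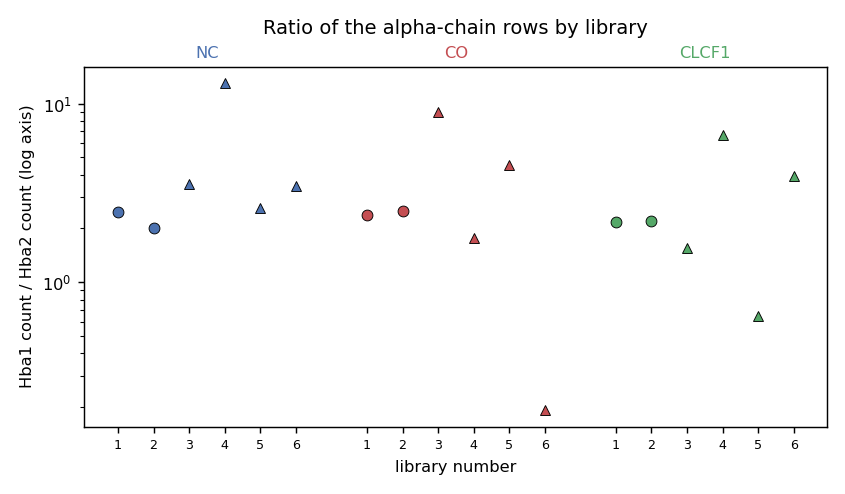
Count of Hba1 divided by count of Hba2 (vertical log axis, no unit) in each of the 18 libraries, by group and library number; circles are libraries 1 and 2 and triangles libraries 3 to 6. The circles lie between 2.02 and 2.51 and the triangles spread from 0.192 to 13.0.

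Most hemoglobin rows of the table sit in 2 clusters, while the beta rows AABR07024041.1 and AABR07024041.2 are listed on no chromosome. The coordinates of the table, in a build it does not name, place Hbb at chromosome 1, 168971274 to 168972725, and Hbb-b1 beside it at 168945449 to 168965566. Hba1 lies on chromosome 10 at 15602794 to 15603649, with Hba2 at 15589364 to 15590220. All are annotated as protein-coding. Of the tissue globins, Ngb lies on chromosome 6 at 111126261 to 111132320 and Cygb on chromosome 10 at 105618326 to 105628091.

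The promoters are shown as a description of the globin genes. They lie before the transcribed part, so their likeness does not show how far reads of these genes can be separated. The part of the promoters in the counts was not tested. RefSeq sequences of build GRCr8 were matched by symbol for Hbb, Hbb-b1 and Ngb and by gene ID for the alpha row LOC287167, which RefSeq names Hba-a3. Hba1 is a synonym of both RefSeq genes Hba-a1 and Hba-a2, so its row was assigned to neither. The count table places its Hbb-b1 row on the plus strand and RefSeq places Hbb-b1 on the minus strand, so that match rests on the symbol alone. Each line gives the 120 bases before the gene's start, 5′ to 3′ on the minus strand, with the coordinates chr1:167663722-167663841 for Hbb, chr1:167643521-167643640 for Hbb-b1, chr10:15842581-15842700 for Hba-a1, chr10:15829139-15829258 for Hba-a2, chr10:15816944-15817063 for Hba-a3 and chr6:112480787-112480906 for Ngb. Capitals mark, on either strand, the words CCAAT (known as the CCAAT box), ATAAA (the core of a TATA box) and CACCC (known as the CACCC box).
Hbb: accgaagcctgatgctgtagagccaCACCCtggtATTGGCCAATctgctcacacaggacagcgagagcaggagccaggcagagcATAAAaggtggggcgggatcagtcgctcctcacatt
Hbb-b1: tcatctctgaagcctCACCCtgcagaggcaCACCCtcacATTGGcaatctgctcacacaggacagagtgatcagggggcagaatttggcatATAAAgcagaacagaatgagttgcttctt
Hba-a1: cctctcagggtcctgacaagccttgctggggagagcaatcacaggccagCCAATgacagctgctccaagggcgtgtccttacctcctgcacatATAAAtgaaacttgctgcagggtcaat
Hba-a2: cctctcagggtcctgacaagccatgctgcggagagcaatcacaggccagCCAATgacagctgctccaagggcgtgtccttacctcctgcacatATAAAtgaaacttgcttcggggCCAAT
Hba-a3: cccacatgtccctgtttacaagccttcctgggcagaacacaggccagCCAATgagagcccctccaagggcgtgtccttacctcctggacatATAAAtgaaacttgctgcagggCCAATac
Ngb: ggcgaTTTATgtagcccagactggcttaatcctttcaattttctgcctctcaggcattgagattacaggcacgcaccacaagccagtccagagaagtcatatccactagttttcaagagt

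Hba-a1 and Hba-a2 were identical at 115 of 120 positions (95.8%), and Hbb and Hbb-b1 at 66.7% of 126 aligned columns. All 3 boxes are known from globin promoters. The 2 beta promoters held all 3 words, as did 0.956% of 33469 RefSeq promoters of the same length. The 3 alpha promoters held the CCAAT and the TATA core in this window, and that of Ngb held the TATA core on the opposite strand. Over all promoters, 19.9% held the CCAAT word, 21.5% the TATA core and 29.5% the CACCC word. In Hbb a CCAAT on each strand lay side by side, with no overlap between them. A match is a string of letters, not a shown binding site.

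Mean hemoglobin RNA was lower in CO than in NC, but Hbb, Hba1 and Hba2 were not called with libraries 1 and 2 alone. Summed over the alpha rows, NC library 2 (18.4 CPM) lay below CO libraries 1 and 2 (53.5 and 44.2 CPM). The alpha rows summed to a mean of 228 ± 180 CPM in NC and 20.9 ± 22.1 CPM in CO, and Hbb went from 10586 counts over the group to 0. In CLCF1 the alpha sum was 173 ± 70.9 CPM, within the range of NC, while Hbb had 19 counts over the group. The differences of neuroglobin and cytoglobin between CO and NC were smaller than their spread between libraries. In bulk tissue, fewer cells of a type and less RNA per cell cannot be told apart.

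Hbb had 4769, 2, 200, 2823, 1736 and 1056 counts in NC libraries 1 to 6. It had 0 counts in each of the 6 CO libraries, which together hold 97 M counts, and a count of 0 allows up to 3 counts, or 0.0314 CPM over the group. In CLCF1 it had 6 and 13 counts in libraries 1 and 2 and 0 in libraries 3 to 6. The groups NC and CO did not overlap, which held for 6.35% of all genes tested (3.2% with CO lower). However, NC library 2, with 2 counts, lies within the limit of a single library, and the highest NC library was 3413-fold above NC library 2 in CPM. The mean was 107 ± 118 CPM in NC and 0.165 ± 0.27 CPM in CLCF1.

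Against 3 counts over the CO group, Hbb was at least 3126-fold lower in CO than in NC, and at least 1998-fold lower without NC library 1, the highest. The edgeR test gave an adjusted p of 0.00152. Hbb passed the filter mainly through NC, where it was high, and failed it in a fit of only CO and NC, so this p adds nothing to the counts themselves. An exact permutation test over all splits of 6 against 6 gave p = 0.00216 (two-sided), the smallest it can give. It treats the 6 libraries of a group as independent, which libraries 3 to 6 may not be, so this p adds no support either. The bound was 1397-fold with libraries 1 and 2 alone and 1725-fold with libraries 3 to 6 alone. The first rests on NC library 1, with 4769 counts beside 2 in NC library 2. Libraries 3 to 6 of a group held no count of any gene at 0 in its libraries 1 and 2. The 0 counts of CO libraries 3 to 6 therefore add nothing separate, here or in the bound over the whole group. The call was lost with limma-voom (adjusted p = 0.26) and with libraries 1 and 2 alone (adjusted p = 0.999). CLCF1 was also below NC, by -9.24 ± 1.46 on the log2 scale (adjusted p = 0.00227; exact permutation p = 0.00649), although NC library 2 overlapped the CLCF1 range. That value was -8.55 without NC library 1 and -10.51 without CLCF1 library 2, and the call was lost with limma-voom (adjusted p = 0.339) and with libraries 1 and 2 alone. CLCF1 and CO, with 19 and 0 counts in all, did not pass (adjusted p = 0.499). These comparisons share libraries: CO enters 2 of them, and so does NC.

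Hba1, an adult alpha chain, had 5517, 259, 1587, 5831, 2511 and 2122 counts in NC libraries 1 to 6. In CO it had 624, 482, 54, 55, 163 and 14 counts. In CLCF1 it had 1167, 3810, 1669, 4036, 943 and 1957 counts. All CLCF1 libraries lay above all CO libraries, whereas NC and CO overlapped, because NC library 2 was below CO libraries 1 and 2. The group means were 176 ± 140 CPM in NC, 14.4 ± 15.8 in CO and 120 ± 67.1 in CLCF1. Hba1 fell by 3.61 ± 0.80 on the log2 scale in CO against NC (adjusted p = 0.00771). It rose by 3.06 ± 0.78 in CLCF1 against CO (adjusted p = 0.0127), and CLCF1 against NC did not pass (-0.55, adjusted p = 0.681).

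Hba2, the neighbouring alpha gene, was also lowest in CO, but its mean was highest in CLCF1. The group means were 48.85 ± 50.96 CPM in NC, 6.23 ± 6.30 in CO and 52.0 ± 25.2 in CLCF1. It had 2229, 128, 445, 447, 967 and 616 counts in NC, and 263, 192, 6, 31, 36 and 73 in CO. In CLCF1 it had 537, 1730, 1074, 606, 1451 and 498 counts, again above every CO library. It fell by 2.97 ± 0.73 on the log2 scale in CO against NC (adjusted p = 0.0134), and by 2.21 without NC library 1 (adjusted p = 0.0363). It rose by 3.06 ± 0.73 in CLCF1 against CO (adjusted p = 0.00846), and CLCF1 against NC gave 0.09 (adjusted p = 0.951). Since the alpha genes are near copies and the way reads were counted is not given, the split of reads between Hba1 and Hba2 is uncertain. Their sum does not depend on that split, but it would change if shared reads were dropped, counted more than once or given to LOC287167.

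Of the 6 globin rows, Hbb, Hba1 and Hba2 were called lower in CO than in NC, beside 12.7% of all genes called in that comparison (6.32% higher and 6.4% lower). Hba1 and Hba2 were called higher in CLCF1 than in CO, where 17% of all genes were called (8.63% higher and 8.34% lower) and groups did not overlap for 7.12%. Hbb was called in CLCF1 against NC, where 9.26% of all genes were (4.43% higher and 4.84% lower). Hbb had counts in 8 of 18 libraries and entered the test mainly through NC, so its calls are given as a description and support nothing beyond its counts. With libraries 1 and 2 alone the alpha folds were smaller and no call was made: in CO against NC, Hba1 gave -2.49 and Hba2 -2.48, and in CLCF1 against CO they gave 1.88 and 2.02. With libraries 3 to 6 alone, the values were -5.23 and -3.91 in CO against NC and 4.68 and 4.40 in CLCF1 against CO, all called.

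**Figure D2:**
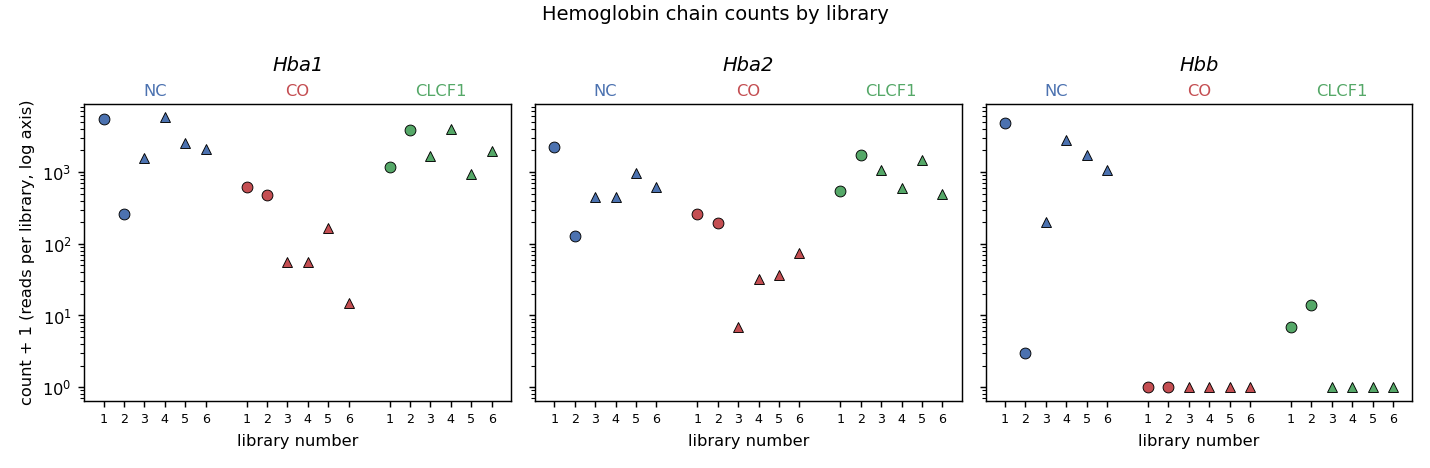
Counts per library plus 1 (vertical log axis) of Hba1, Hba2 and Hbb in the 18 libraries, by group and library number; circles are libraries 1 and 2 and triangles libraries 3 to 6. Every CLCF1 point lies above every CO point for Hba1 and Hba2, and Hbb is at 0 counts in all CO libraries and in CLCF1 libraries 3 to 6.

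Hbb-b1, another beta chain, was low throughout. It had 107, 0, 51, 36, 45 and 62 counts in NC, 13, 0, 4, 0, 4 and 33 in CO, and 1, 18, 0, 7, 0 and 12 in CLCF1. No comparison passed: CO against NC gave -2.39 ± 0.99 (adjusted p = 0.115), CLCF1 against CO -0.75 (adjusted p = 0.673) and CLCF1 against NC -3.14 ± 1.03 (adjusted p = 0.0607). In CO against NC the value was -3.49 without CO library 6, and then passed (adjusted p = 0.0464). CLCF1 against NC passed without NC library 2 (adjusted p = 0.0301), without CO library 4 (0.0496) or without CO library 6 (0.0439).

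The table describes 13 rows as hemoglobin chains, including rows with no Hba or Hbb symbol, whose values were added after the data were seen. LOC287167, an alpha row, had 11 to 124 counts in NC, 0 to 12 in CO and 6 to 39 in CLCF1. It fell by 3.62 in CO against NC (adjusted p = 0.00691), or by 4.35 without CO library 2, and the call was lost with libraries 1 and 2 alone (-2.42). LOC287167 passed the filter mainly through NC, where it was high, so this p adds nothing to its counts. AC113925.2, a beta row that failed the filter because too few libraries held enough counts, had 2144, 0, 314, 877, 723 and 350 counts in NC, but 2 and 1 in CO libraries 1 and 2 and 7 and 1 in CLCF1 libraries 1 and 2, with 0 in the others. It lies inside the span of Hbb-b1 (168957460 to 168958836), so reads of these rows may not be separated. The beta rows AABR07024041.1 and AABR07024041.2 also failed the filter. They had 192 and 141 counts in NC, 0 each in CO, and 34 and 36 in CLCF1. The embryonic and fetal rows Hbz, Hbe1, Hbe2 and Hbg1 had 0 counts in every library, and Hbq1b, a theta chain, had 1, 0 and 24 counts in NC, CO and CLCF1.

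Summed over their rows, the alpha chains ran from 18.4 to 520 CPM in NC (median 180), from 3.91 to 53.5 in CO (median 9.06) and from 102 to 272 in CLCF1 (median 140). NC library 2 (18.4 CPM) lay below CO libraries 1 and 2 (53.5 and 44.2 CPM), and all CLCF1 libraries lay above all CO libraries. Beta chains made up 40.5% of pooled hemoglobin counts in NC, with 2.93% to 47.6% in single libraries and a median of 36.3%. In CLCF1 they made up 0.686% of pooled counts, and 0.0363% to 1.52% in single libraries. Each CLCF1 library lay below each NC library, and the nearest were NC library 2 (2.93%, 95% exact binomial interval 1.52% to 5.06%) and CLCF1 library 5 (1.52%, 1.07% to 2.09%). The 37 beta counts of CLCF1 library 5 were 13 of AABR07024041.1 and 24 of AABR07024041.2. The 12 beta counts of NC library 2 were 10 of AABR07024041.2 and 2 of Hbb. In CO the pooled share was 2.75%, the median over libraries was 1.80%, and CO library 6 reached 27.5% (19.8% to 36.4%) on 33 counts, all of Hbb-b1. Without that library the pooled CO share was 1.23% (24 of 1954 counts, 95% exact binomial interval 0.789% to 1.82%). CLCF1 thus held 135 beta counts beside 19555 alpha counts, and NC held 15628 beside 22984. The rows AABR07024041.1 and AABR07024041.2 supplied 34 and 36 of the beta counts in CLCF1, and 192 and 141 of those in NC. No molecular identifiers are named in the labels, and these intervals hold counting error alone.

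**Figure D3:**
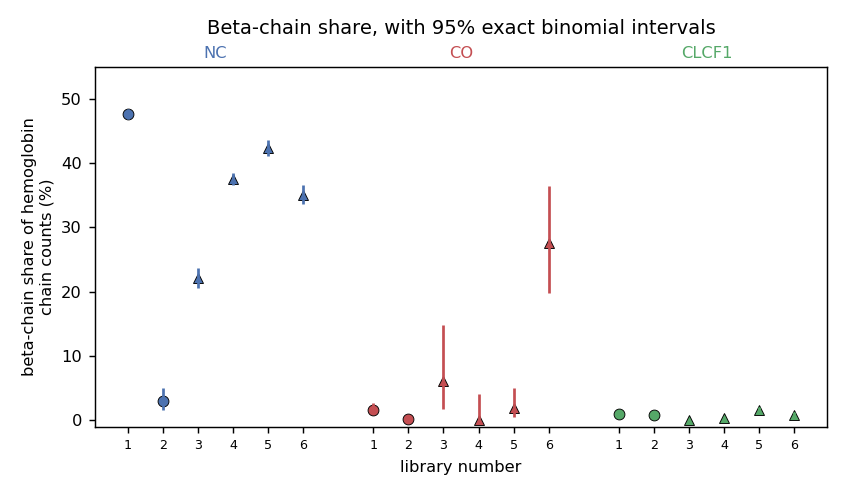
Share of hemoglobin chain counts that came from beta-chain rows (vertical axis, %) in the 18 libraries, by group and library number, with 95% exact binomial intervals; circles are libraries 1 and 2 and triangles libraries 3 to 6. NC reaches 47.6%, with NC library 2 at 2.93%, CLCF1 stays at or below 1.52%, and CO library 6 stands at 27.5%.

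Hemoglobin rows varied within groups more than nearly all genes of like level. The within-group SD of log2 CPM was 1.63 for Hba1, 1.44 for Hba2 and 2.35 for Hbb, which was larger than in 100% (rounded), 99.8% and 99.9% of genes within 1 log2 unit of the same mean level. That of Ngb was 0.374, larger than in 55.3% of its like. That of Cygb was 0.162, larger than in 10.9%, which makes Cygb a steady gene in these libraries.

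Red-cell markers did not pass with the hemoglobin rows. Of 16 erythroid symbols, 15 were found, 6 could be tested and none passed in any of the 3 comparisons, with log2 medians of -0.44 in CO against NC, 0.33 for CLCF1 against CO and -0.37 for CLCF1 against NC, beside medians of 0.007, 0.002 and 0.011 over all genes. Their summed level was 112 to 170 CPM in NC, 116 to 152 in CO and 95.4 to 162 in CLCF1, of which Bpgm, the red-cell bisphosphoglycerate mutase, made up 93.5% to 97.1%. Without Bpgm, a choice made after the data were seen, the sums were 6.02 to 10.0, 3.69 to 6.04 and 4.28 to 7.70 CPM. Gata1, the erythroid transcription factor, was at 0 in all libraries.

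Some low erythroid genes were highest in NC and lowest in CO, like Hba1 and Hbb, and others were not. Alas2, the red-cell form of the enzyme that starts heme synthesis, had 35, 0, 12, 14, 21 and 14 counts in NC, 1, 8, 6, 0, 3 and 2 in CO, and 4, 22, 3, 8, 3 and 3 in CLCF1. Its value in CO against NC was -2.13 ± 0.79 (adjusted p = 0.0791). Epb42, a protein of the red-cell membrane skeleton, had 85, 0 and 30 counts in NC, CO and CLCF1, below the level needed for the test. Ahsp, the chaperone of free alpha chains, had 29, 39 and 0 counts. Slc4a1, the anion exchanger of red cells, had 62, 84 and 46 counts, and CLCF1 against CO gave -1.11 ± 0.46 (adjusted p = 0.104). The part of blood cells in the hemoglobin results was not tested.

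In CLCF1, 1 gene of the platelet list and 1 of the neutrophil list rose, and the other tested gene of each list did not pass. Pf4, a platelet chemokine, was at 1.21 ± 0.768 CPM in NC, 1.11 ± 0.832 in CO and 5.22 ± 3.20 in CLCF1. It rose by 2.23 ± 0.59 on the log2 scale in CLCF1 against CO (adjusted p = 0.0147) and by 2.12 in CLCF1 against NC (adjusted p = 0.0286), and was the only platelet marker of 2 tested to pass. The latter call was lost without NC library 3, 4, 5 or 6 or CLCF1 library 2 or 3 (adjusted p 0.0528 to 0.0601). S100a9, a neutrophil calcium-binding protein, was at 0.287 ± 0.366 CPM in NC, 0.463 ± 0.290 in CO and 1.78 ± 0.536 in CLCF1. It passed the filter mainly through CLCF1, where it was high, so its p-values add nothing to these levels. S100a9 rose by 2.65 ± 0.63 in CLCF1 against NC (adjusted p = 0.0138), and by 3.36 without NC library 6, and was the only neutrophil marker of 2 tested to pass. It rose by 1.93 in CLCF1 against CO (adjusted p = 0.0328), a call lost without CO library 1, 3, 4, 5 or 6 or CLCF1 library 2, 4 or 5 (adjusted p 0.0507 to 0.0647). The summed platelet list ran from 3.34 to 5.88 CPM in NC, 3.18 to 6.70 in CO and 5.60 to 12.9 in CLCF1, and Ppbp and Gp1bb were at 0 throughout. Gp9 had 0, 11 and 12 counts in NC, CO and CLCF1, and Tubb1 had 0, 0 and 3. The summed neutrophil list ran from 3.70 to 5.77, 1.95 to 11.2 and 6.08 to 9.73 CPM, and Cxcr2 and Retnlg were at 0 throughout. Neutrophil markers that failed the filter went both ways. S100a8 had 32, 26 and 61 counts in NC, CO and CLCF1 and Ngp had 23, 34 and 82, highest in CLCF1 like S100a9. Camp had 90, 22 and 1 counts and Mmp8 had 9, 26 and 10, and these did not follow S100a9. Neither Pf4 nor S100a9 passed with libraries 1 and 2 alone, and S100a9 did not pass with libraries 3 to 6 alone (adjusted p = 0.058 against NC and 0.0647 against CO). Whether Pf4 and S100a9 stood for platelets and neutrophils here was not tested, nor was the part of such cells in the higher alpha-chain counts of CLCF1.

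No difference of neuroglobin RNA between groups passed. Ngb had 275, 213, 313, 175, 189 and 218 counts in NC, 262, 163, 164, 152, 234 and 274 in CO, and 141, 259, 194, 243, 314 and 185 in CLCF1. The ranges overlapped fully, and the means were 13.1 ± 3.86, 13.05 ± 3.29 and 11.9 ± 3.04 CPM. The fold of CO to NC was 0.999 with a 95% interval of 0.747 to 1.34 (adjusted p = 0.997). That interval reaches from -25.3% to 33.6% of change, so a change of that size is not excluded by 6 libraries a group. CLCF1 was at 0.914-fold of CO (0.684 to 1.22, adjusted p = 0.723) and at 0.913-fold of NC (0.683 to 1.22, adjusted p = 0.755).

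Some neuron markers passed in CO against NC, in both directions. Of the 6 general neuron markers, 2 rose in CO against NC, and their sum went from 3877 to 4330 CPM in NC to 5034 to 5504 in CO. Of the 5 hypothalamic markers tested, 3 rose and 1 fell in CO against NC, and of the 5 monoamine neuron markers tested 3 fell, beside 6.32% of all genes higher and 6.4% lower. The summed hypothalamic list ran from 6.02 to 13.0 CPM in NC and from 5.67 to 302.4 in CO, with Pmch at 0 in both, and the summed monoamine list from 27.5 to 284 and from 16.5 to 63.8, with Slc6a4 at 0 in CO. The part of these neuron types in the level of Ngb was not tested.

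Cytoglobin RNA had its lowest mean in CLCF1, and CO and NC differed by less than their spread. Cygb had 1057, 1090, 1043, 1025, 1114 and 1153 counts in NC, 1098, 898, 1051, 990, 909 and 1162 in CO, and 984, 874, 964, 1056, 1023 and 859 in CLCF1. The means were 60.8 ± 6.76, 64.0 ± 6.14 and 52.0 ± 6.43 CPM. In CO against NC the log2 fold change was 0.07 ± 0.10 (adjusted p = 0.68), and the interval of the fold was 0.914 to 1.21. In CLCF1 against CO it was -0.30 ± 0.10, a fold of 0.813 (0.705 to 0.937), which missed the threshold narrowly (adjusted p = 0.0549) among 17% of genes called. The exact permutation test of Cygb alone gave p = 0.0108 (two-sided, 6 against 6), and DESeq2 called it (adjusted p = 0.0307). It also passed when any 1 of NC libraries 1, 2 or 6, CO libraries 2 or 5, or CLCF1 libraries 1 or 4 was left out, with adjusted p-values from 0.0361 to 0.116 over the 18 libraries left out in turn. CLCF1 against NC gave -0.22 (adjusted p = 0.184; exact permutation p = 0.0476).

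Some markers of cells that cytoglobin is known from fell in CO. Of 11 fibroblast and meningeal markers, 5 fell in CO against NC, beside 6.4% of all genes, and 3 rose in CLCF1 against CO, beside 8.63%. Their summed level ran from 886 to 1171 CPM in NC, 325 to 1055 in CO and 744 to 988 in CLCF1. Of 11 pericyte and smooth muscle markers, 4 fell in CO against NC and 1 rose in CLCF1 against CO, beside the same shares of all genes, with sums of 277 to 367, 123 to 234 and 155 to 240 CPM. No marker of either list was at 0 in a group. The part of these cells in the level of Cygb was not tested.

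**Figure D4:**
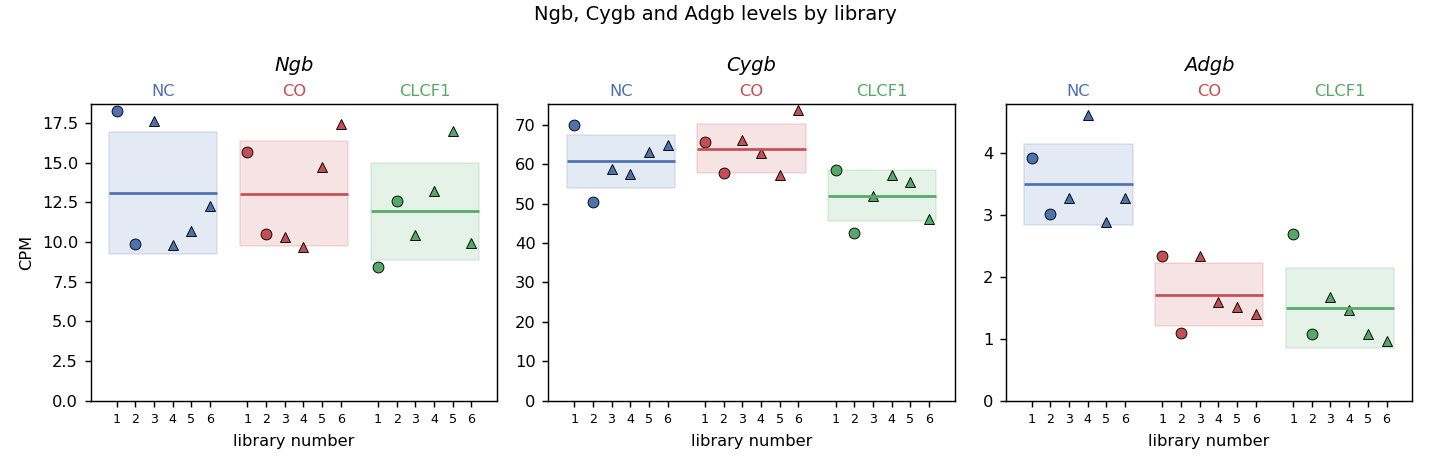
CPM (vertical axis) of Ngb, Cygb and Adgb in the 18 libraries, by group and library number; circles are libraries 1 and 2, triangles libraries 3 to 6, lines the mean of 6 libraries and bands the mean ± SD. Ngb overlaps fully between groups, Cygb is lowest on average in CLCF1, and all NC points of Adgb lie above those of CO and CLCF1.

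Of the other globin genes, only androglobin had enough counts to be tested. Adgb, a large protein with a globin domain, had 59, 65, 58, 82, 51 and 58 counts in NC, 39, 17, 37, 25, 24 and 22 in CO, and 45, 22, 31, 27, 20 and 18 in CLCF1. Every NC library lay above every CO and CLCF1 library in CPM, and NC lay above the other group in this way for 3.2% of all genes in CO against NC and for 2.9% in CLCF1 against NC (groups did not overlap in either direction for 6.35% and 5.63%). Adgb fell by 1.02 ± 0.27 on the log2 scale in CO against NC (adjusted p = 0.0193) and by 1.23 ± 0.27 in CLCF1 against NC (adjusted p = 0.00925). CLCF1 against CO gave -0.20 (adjusted p = 0.656). With libraries 1 and 2 alone the values were -1.02 and -0.90 and neither passed, and CO against NC also missed the threshold with libraries 3 to 6 alone (-1.03, adjusted p = 0.0693). Mb, the muscle globin myoglobin, had 2, 1 and 0 counts in NC, CO and CLCF1.

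Levels of different genes were compared as CPM per kb of gene length. In NC the order was Hba1 (316 ± 251), Hbb (163 ± 178), Hba2 (87.7 ± 91.5), Cygb (28.8 ± 3.20), Ngb (5.49 ± 1.62), Hbb-b1 (2.22 ± 1.72) and Adgb (0.497 ± 0.0926). Of the hemoglobin rows left out of this order, AC113925.2 (72.1 ± 81.4) had a mean between Hba2 and Cygb, and LOC287167 (7.42 ± 6.40) between Cygb and Ngb. AABR07024041.1 (3.04 ± 2.45) had a mean between Ngb and Hbb-b1, and AABR07024041.2 (2.04 ± 1.69) between Hbb-b1 and Adgb. The ranges of Hba1, Hbb and Hba2 over libraries overlapped each other and that of Cygb. Hbb-b1 (0 to 5.24) lay below all values of Cygb, Hba1 and Hba2 and overlapped Ngb, while all Cygb values (23.9 to 33.2) lay above all Ngb values (4.12 to 7.65). In CO the order began with Cygb (30.3 ± 2.91), followed by Hba1 (25.9 ± 28.4), Hba2 (11.2 ± 11.3) and Ngb (5.48 ± 1.38). Cygb and Hba1 do not differ beyond their spread there, since Hba1 ran from 1.60 to 67.1. In CLCF1 the order was Hba1 (216 ± 121), Hba2 (93.4 ± 45.3), Cygb (24.6 ± 3.05) and Ngb (5.01 ± 1.28), with all Hba1 and Hba2 values above all Cygb values.

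Heme is made in mitochondria and cytosol, and heme oxygenase splits it into biliverdin, iron and CO. Of 12 heme synthesis genes, 1 rose and none fell in CO against NC (median -0.052, beside 0.007 over all genes), 2 rose in CLCF1 against CO (median -0.017, beside 0.002) and none passed in CLCF1 against NC (median -0.064, beside 0.011). Over all genes 12.7%, 17% and 9.26% were called in these comparisons, so the counts of the list are near the background. The gene that rose in CO was Slc25a38, a mitochondrial glycine carrier, by 0.50 ± 0.13 (adjusted p = 0.0211), and without NC library 6 it missed the threshold narrowly (adjusted p = 0.0502). Those that rose in CLCF1 against CO were Alad, an early enzyme of the pathway, by 0.47 ± 0.14 (adjusted p = 0.0235), and Abcb10, a mitochondrial transporter, by 0.63 ± 0.19 (adjusted p = 0.0273). The Alad call was lost without CO library 4 or 6 or CLCF1 library 4 (adjusted p 0.0633 to 0.067) and in a fit of only CO and CLCF1 (adjusted p = 0.061). The Abcb10 call was lost without CO library 3, 4 or 6 or CLCF1 library 4 or 5 (adjusted p 0.0552 to 0.0682).

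Of 10 tested genes of hemoglobin and heme uptake, transport and breakdown, the 2 heme oxygenases rose in CO, beside 6.32% of all genes, and fell in CLCF1 against CO, beside 8.34%. Medians of the list were 0.116 in CO against NC, -0.012 in CLCF1 against CO and 0.147 in CLCF1 against NC, where none passed, and those over all genes were 0.007, 0.002 and 0.011. Hmox1, the inducible heme oxygenase, had 146, 175, 94, 156, 175 and 157 counts in NC, 232, 233, 156, 238, 256 and 204 in CO, and 157, 213, 170, 173, 126 and 179 in CLCF1. Hmox1 rose by 0.71 ± 0.16 on the log2 scale in CO against NC (adjusted p = 0.00883) and fell by 0.60 ± 0.16 in CLCF1 against CO (adjusted p = 0.0169). In CPM, CO library 3 (9.83) was the only CO library within the range of NC (5.29 to 9.90). Values were alike with libraries 1 and 2 alone (0.69 and -0.56) and libraries 3 to 6 alone (0.72 and -0.63), and no call was made in either.

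Hmox2, the constitutive heme oxygenase, rose by 0.36 ± 0.11 in CO against NC (adjusted p = 0.0372) and fell by 0.32 ± 0.11 in CLCF1 against CO (adjusted p = 0.0498). Both calls were fragile. In CO against NC it was lost without NC library 2, 3, 4 or 6 or CO library 5 or 6 (adjusted p 0.0546 to 0.085), with library size alone (0.0512), with the stricter filter of a mean CPM of 1 (0.0503) and in a fit of only the 2 groups (0.0703). In CLCF1 against CO it was lost without NC library 2 or 4, CO library 5 or 6, or CLCF1 library 1, 2, 3 or 5 (adjusted p 0.0547 to 0.0978), and under the same 3 alternatives (0.0566, 0.0604 and 0.0792) and limma-voom (0.0715). Fth1, the ferritin heavy chain, was listed at 0 in every library, while Ftl1, the light chain, did not pass in CO against NC (0.43, adjusted p = 0.176).

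Of 6 genes for keeping globin iron reduced, none passed in CO against NC (median -0.001), 2 rose in CLCF1 against CO (median 0.239) and 1 rose in CLCF1 against NC (median 0.338). Over all genes the medians were 0.007, 0.002 and 0.011, and 8.63% and 4.43% rose in the latter 2 comparisons. Cyb5r4, a cytochrome b5 reductase, rose by 0.43 ± 0.12 in CLCF1 against CO (adjusted p = 0.0172) and by 0.48 ± 0.12 in CLCF1 against NC (adjusted p = 0.0159). Cyb5r3, the enzyme that reduces methemoglobin in red cells, rose by 0.31 ± 0.10 in CLCF1 against CO (adjusted p = 0.0356), a call lost without NC library 3 or 5, CO library 2, 3, 4 or 6, or CLCF1 library 1, 2, 3, 4 or 6 (adjusted p 0.0505 to 0.0895) and in a fit of only CO and CLCF1 (0.0656).

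Of 10 tested genes for other heme proteins that bind CO or nitric oxide, none passed in CO against NC (median 0.163, beside 0.007 over all genes). Nos3, the endothelial nitric oxide synthase, fell by 1.05 ± 0.32 in CLCF1 against CO (adjusted p = 0.0311). That call was lost without CO library 2, 3 or 6 or CLCF1 library 2, 3, 5 or 6 (adjusted p 0.0526 to 0.0655). Npas2, a heme-binding clock transcription factor, rose by 0.51 ± 0.16 in CLCF1 against NC (adjusted p = 0.0459), a call lost without NC library 1, 5 or 6, CO library 1, 4 or 5, or CLCF1 library 1, 3, 5 or 6 (adjusted p 0.0505 to 0.11). It was also lost with library size alone (0.0636), the stricter filter (0.056), a fit of only the 2 groups (0.0676) and the replicate block (0.0652). The other genes of the list passed in neither comparison, so that 1 of 10 fell beside 8.34% of all genes in CLCF1 against CO and 1 of 10 rose beside 4.43% in CLCF1 against NC. List medians were -0.026 and 0.052, beside 0.002 and 0.011 over all genes. None of the calls in these 4 lists held with libraries 1 and 2 alone, and with libraries 3 to 6 alone that of Alad did (adjusted p = 0.0361) and the others did not.

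**Figure D5:**
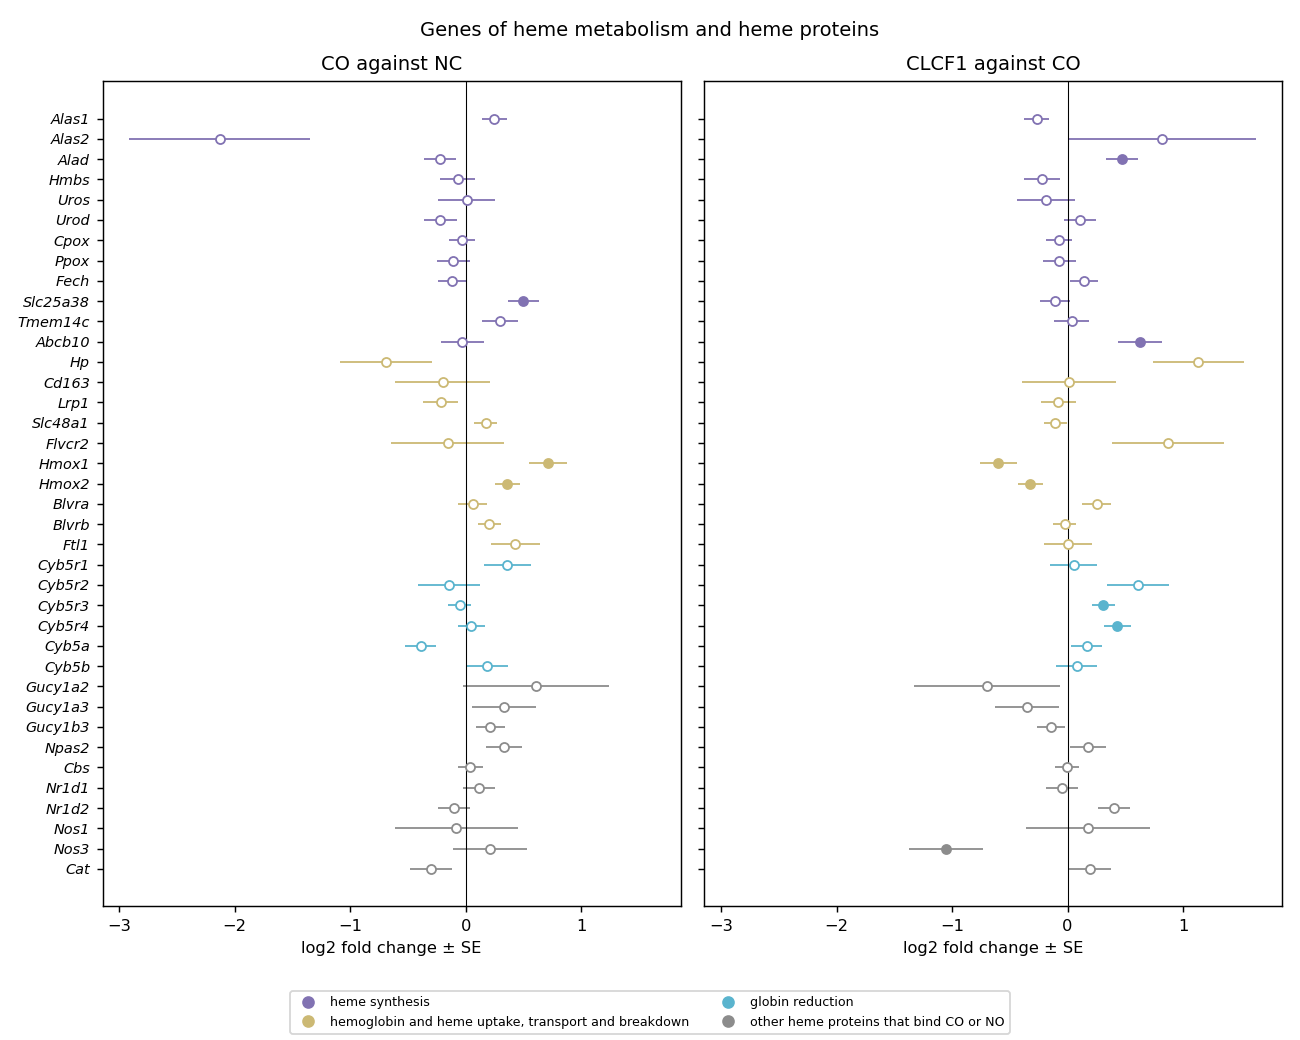
Log2 fold change ± SE (horizontal axis) of the genes tested in the 4 heme lists, in CO against NC (left) and CLCF1 against CO (right); filled points passed at an adjusted p under 0.05 (edgeR) and open points did not. Hmox1 lies at 0.71 on the left and -0.60 on the right.

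The named genes whose log2 CPM was most like that of each globin over the 18 libraries, among 13840 ranked, were taken as a description; the points share groups, library and depth. For Hbb they were Dao (Pearson r = 0.887), Capn6 (0.885), Fbln5 (0.867), Slc6a3 (0.851) and St18 (0.85). Slc6a3, the dopamine transporter, was at 27.1 ± 16.2 CPM in NC, 0.0637 ± 0.129 in CO and 1.82 ± 1.79 in CLCF1, the group order of Hbb. For Ngb they were Donson (0.793), Kctd14 (0.721), Med29 (0.697), Polr2m (0.695) and Phlda3 (0.692). For Cygb they were Polr2c (0.919), a subunit of RNA polymerase II, Ciao1 (0.869), Phyhd1 (0.866), Rpap3 (0.833) and Eif1b (0.829). Over the 6 libraries numbered 1 or 2, other genes ranked highest for each of the 3 globins, and r there was 0.72 to 0.95 for the Hbb genes, 0.656 to 0.866 for the Ngb genes and 0.889 to 0.975 for the Cygb genes.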

How the data were processed

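RNA-seq was analysed in 18 rat brain libraries, 6 per group, grouped and numbered by their titles. The authors deposited 1 table of raw counts per gene; neither aligner nor counter is given in the sources used here, and the submitters' processing notes name only mouse builds although the gene IDs are of rat. Strand is not stated. Counts were tested with edgeR 4.0.16 (R 4.3.3): TMM scaling, filterByExpr defaults, 1 robust quasi-likelihood fit of all 18 libraries, and contrasts of CO with NC and of CLCF1 with CO and with NC. CPM used TMM-scaled library sizes, and log2 CPM a prior count of 2. Globin rows also had a two-sided exact permutation test of mean log2 CPM. Against a group at 0, folds were computed with 3 counts over the group.

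The globins, the pathway and marker lists and the rule for named genes were chosen with earlier results of these data known. That rule takes the globin rows, the genes of the list of other globins and up to 4 passing genes per pathway list and comparison. It also takes the 5 genes most like each globin, and marker genes of lists moving beside a globin. Pf4, Gp9, Tubb1, S100a9, S100a8, Ngp, Camp, Mmp8, Alas2, Epb42, Ahsp, Slc4a1, Fth1 and Ftl1 were named after their values were seen. Alternatives were DESeq2 1.42.0, its size factors, library size alone, other filters, limma 3.58.1 voom with quality weights, fits of 2 groups, a replicate block, libraries 1 and 2 or 3 to 6 alone, and each library left out. Pairs of libraries within a group differed by more than sampling noise (chi-square per degree of freedom 42.2 to 76.7). The tests were tested on simulated data.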

Additional observations from a re-analysis of the deposited data

Results flagged for a closer look

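Of 17 groups of 6 libraries checked over the 6 globin rows, 2 held a library whose gap to its nearest neighbour took up more of the group's range than Dixon's 95% limit allows, and chance flags about 1 in 20 groups. Hba2 was at 147.7 CPM in NC library 1, the highest of the NC libraries, which also held the most counts of Hbb. Without it, Hba2 still fell in CO against NC (-2.21, adjusted p = 0.0363). Hbb-b1 was at 2.097 CPM in CO library 6, the highest of the CO libraries, on 33 counts. Without it, Hbb-b1 passed in CO against NC (-3.49, adjusted p = 0.0464).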

How the results depend on the processing

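No call of Hbb, Hba1 or Hba2 was lost when any 1 library was left out. Leaving out 1 library cannot show that a call is stable if libraries 3 to 6 are not independent of libraries 1 and 2. The Hbb calls also add nothing to its counts, since it passed the filter mainly through NC. With no filter, 4291, 5645 and 4292 genes differed in CO against NC, in CLCF1 against CO and in CLCF1 against NC (main counts 2110, 2814 and 1536), Ngb in CO against NC turned to 7e-04, Cygb in CLCF1 against CO passed (-0.30, adjusted p = 0.0443) and so did Hbb-b1 in CLCF1 against NC (-3.15, 0.0372). DESeq2 called 2334 genes in CLCF1 against NC and Cygb in CLCF1 against CO (-0.31). With limma-voom, Hbb in CO against NC (-8.96) and CLCF1 against NC (-7.82) and Hba2 in CO against NC (-2.65, 0.0692) were no longer called, and Ngb in CO against NC (0.047) and Hba1 in CLCF1 against NC (0.15) changed sign. Libraries 1 and 2 alone gave 4, 8 and 2 calls, and lost Hbb (-14.48), Hba1 (-2.49) and Hba2 (-2.48) in CO against NC, Hba1 (1.88) and Hba2 (2.02) in CLCF1 against CO and Hbb (-8.32) in CLCF1 against NC, with fewer samples; Hbb-b1 in CLCF1 against CO (0.25) and Hba2 in CLCF1 against NC (-0.45) changed sign. Libraries 3 to 6 alone gave 918, 1436 and 736 calls, and Ngb turned to 0.0494 in CO against NC and to 4e-04 in CLCF1 against NC. Exact permutation gave Ngb 0.0082 in CO against NC, Cygb -0.30 (p = 0.0108) in CLCF1 against CO and -0.23 (p = 0.0476) in CLCF1 against NC, and Hbb-b1 -2.64 (p = 0.039) in CLCF1 against NC. With 1 library left out, Cygb in CLCF1 against CO ran from -0.35 to -0.25, Hba2 in CLCF1 against NC from -0.14 to 0.82, Ngb in CO against NC from -0.10 to 0.14, and Hbb-b1 from -3.49 to -1.91 in CO against NC, from -1.34 to 0.33 in CLCF1 against CO and from -3.73 to -2.71 in CLCF1 against NC. Beyond fewer genes or samples, the cause was not tested. Fits of only the 2 groups compared gave no value for Hbb in either comparison with CO or for Hbb-b1 in CLCF1 against CO, because the rows failed the filter, and Hbb in CLCF1 against CO had none in libraries 3 to 6 alone, where both groups are at 0.

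With the replicate block, Cygb in CLCF1 against CO passed (-0.30, adjusted p = 0.0445) and no other call of the 6 globin rows changed, while Npas2 in CLCF1 against NC was no longer called (0.54, adjusted p = 0.0652). Deviations of same-numbered libraries had correlations of -0.028 to 0.149, so the numbers were not taken to pair the libraries. At this depth 3 counts in a library are 0.139 to 0.199 CPM, which limits what can be said of Hbb in CO and CLCF1.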
